A study of Mus musculus with 16 samples.

Results

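The choroid plexus genes described here are Ttr, Kl, Folr1, Clic6, Aqp1, Otx2, Enpp2, Slc4a5 and Prlr, 9 of the 54532 genes listed in a table of RNA-seq counts from mouse hippocampus. They were taken by symbol, and they were selected on these same counts because their levels differed widely between mice of one group. The size of that spread is therefore given as a description, with no test. The tested measure is the difference between groups. It is not independent of the selection, because a wide spread within groups makes a difference between groups harder to call.

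RNA was sequenced from 16 mice, 4 per group: untreated WT and hTau.P301S mice, and mice of either genotype that were given NR (WT + NR and hTau.P301S + NR). hTau.P301S mice carry a transgene for human Tau with the P301S mutation, expressed in neurons from the Thy1 promoter, and WT mice do not. NR (nicotinamide riboside, a precursor of NAD+) was given at 6 mM in drinking water for 3 months to mice that were 12 months old at the start and 15 months old at the end, and the other groups drank vehicle water. These ages and times are those of the sample labels, and the study's own text states other ones. The labels give no sex, litter, dissection day or sequencing batch, so none of these could be compared with the levels.

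The choroid plexus is the secretory tissue of the brain ventricles. Its epithelium forms the barrier between blood and cerebrospinal fluid and secretes most of that fluid, and it lies beside the hippocampus, attached along its edge in the lateral ventricle. Transthyretin, the product of Ttr, is its best known secreted protein. In whole tissue, more choroid plexus cells and more RNA of these genes per cell cannot be told apart.

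Total counts ranged from 16490261 to 21915362 per mouse. Hippocampal markers were read in every mouse, among them Prox1 of granule cells at 20.9 to 160 CPM and Neurod6 of pyramidal cells at 21.7 to 237 CPM (CPM, a gene's counts relative to a fixed total, scaled between mice by TMM, a trimmed mean of gene ratios). Wfs1 was at 67.4 to 287 CPM and Fibcd1 at 26.7 to 241 CPM. Spink8 went lowest, from 0.777 to 180 CPM, so the mice did not hold these markers at like levels. Mouse hTau.P301S replicate 1 stood apart, with 14.4% of its counts on mitochondrial genes and 19467 genes detected, against 4.48% to 7.07% and at least 22199 genes in the other 15. Values without it are given beside the results that rest on it. Together the 9 genes took from 0.0123% of a mouse's counts in WT replicate 3 to 1.47% in WT + NR replicate 4.

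All 9 genes are annotated as protein coding, and their positions are given in the mouse genome build GRCm38. Ttr is at chr18:20665280-20674321, Kl at chr5:150952607-150993817, Folr1 at chr7:101858331-101870788, Clic6 at chr16:92485736-92541243 and Otx2 at chr14:48657677-48673819. Enpp2 at chr15:54838901-54952892 and Prlr at chr15:10177238-10349180 share a chromosome, as do Aqp1 at chr6:55336432-55348555 and Slc4a5 at chr6:83219828-83304945.

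Otx2 encodes a homeodomain transcription factor needed for the choroid plexus, and factors of its family are known to bind the letters TAATCC. The RefSeq promoter windows of the GRCm38.p6 assembly, 250 bases before and 50 after a start site, were searched for TAATCC on both strands (GGATTA on the other). Of the members, 5 had windows, 10 in all, and 1 window, of Otx2 itself, held the motif. Among all 32851 windows 2320 held it, 7.06%, and counted by gene, 2199 of 27025 did (8.14%). Among 42 matched genes of a wider choroid plexus list, 5 did (11.9%): Abca4, Ace, Igf2, Mfrp and Pla2g5. The stretch of Otx2 is shown because it is the member window with a match. The stretch of Mfrp is shown because no gene outside the members followed Ttr more closely. The 250 bases before the start sites of Aqp1 and Kl are shown as windows without a match, from a member that followed Ttr closely and one that did so less. Capitals mark the motif, and sequences run 5′ to 3′ on the strand of the gene.

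Otx2, chr14:48665303-48665332, minus strand, motif 211 bases before that start site: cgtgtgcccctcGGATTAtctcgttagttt

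Mfrp, chr9:44101624-44101653, plus strand, motif 134 bases before the start site: ctcagctgagttGGATTAaggaccattccg

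Aqp1, chr6:55336049-55336298, plus strand, no match: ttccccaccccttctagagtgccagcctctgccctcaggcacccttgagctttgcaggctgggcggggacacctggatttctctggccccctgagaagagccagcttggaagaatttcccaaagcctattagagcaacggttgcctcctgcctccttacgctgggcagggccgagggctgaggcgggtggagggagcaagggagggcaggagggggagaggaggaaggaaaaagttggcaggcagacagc

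Kl, chr5:150952357-150952606, plus strand, no match: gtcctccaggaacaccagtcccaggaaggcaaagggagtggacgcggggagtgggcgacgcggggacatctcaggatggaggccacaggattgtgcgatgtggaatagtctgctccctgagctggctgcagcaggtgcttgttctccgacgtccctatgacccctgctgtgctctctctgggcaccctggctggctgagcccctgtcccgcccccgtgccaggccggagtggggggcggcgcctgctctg

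The Otx2 stretch overlaps exons of 2 other annotated Otx2 transcripts, and the other 3 stretches overlap no annotated exon. A match is a description of the letters and not of binding.

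Among the secreted proteins, Ttr, the carrier of thyroxine and retinol-binding protein, ranged from 14 counts in one mouse to 160302 in another. In the WT mice, replicates 1 to 4, Ttr was at 7381, 2339, 0.738 and 106 CPM, and in the WT + NR mice at 37.0, 26.5, 5529 and 9045 CPM. In the hTau.P301S mice it was at 6.50, 4469, 7.85 and 10.6 CPM, and in the hTau.P301S + NR mice at 44.4, 3412, 20.6 and 396 CPM. The highest mouse was 12252-fold above the lowest, and both carried no transgene. The levels left a gap: 6 mice lay between 2339 and 9045 CPM, 1 at 396 CPM, and 9 at or under 106 CPM. The WT and WT + NR groups held 2 of the 6 mice each, and the hTau.P301S and hTau.P301S + NR groups 1 each, so every group held both high and low mice.

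Enpp2 encodes autotaxin, a secreted enzyme that makes lysophosphatidic acid and is also made by oligodendrocytes. Its CPM were 3231, 540, 95.6 and 181 in WT, 215, 206, 1907 and 4467 in WT + NR, 207, 1552, 171 and 206 in hTau.P301S, and 260, 919, 198 and 363 in hTau.P301S + NR. The highest was 46.8-fold above the lowest, and the same 6 mice were the highest. No mouse lacked Enpp2, and 8 of the 9 mice at or under 106 CPM of Ttr held it between 171 and 260 CPM.

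Kl encodes Klotho, a membrane and secreted coreceptor of FGF23 that neurons express as well. It was at 299, 41.6, 17.6 and 30.02 CPM in WT, at 23.3, 23.3, 188 and 418 CPM in WT + NR, at 10.7, 122, 26.1 and 27.5 CPM in hTau.P301S, and at 24.0, 75.4, 31.1 and 21.9 CPM in hTau.P301S + NR. The same 6 mice were again the highest. The lowest value belonged to hTau.P301S replicate 1, and the ratio of highest to lowest was 39.1 with that mouse and 23.8 without it.

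**Figure D1:**
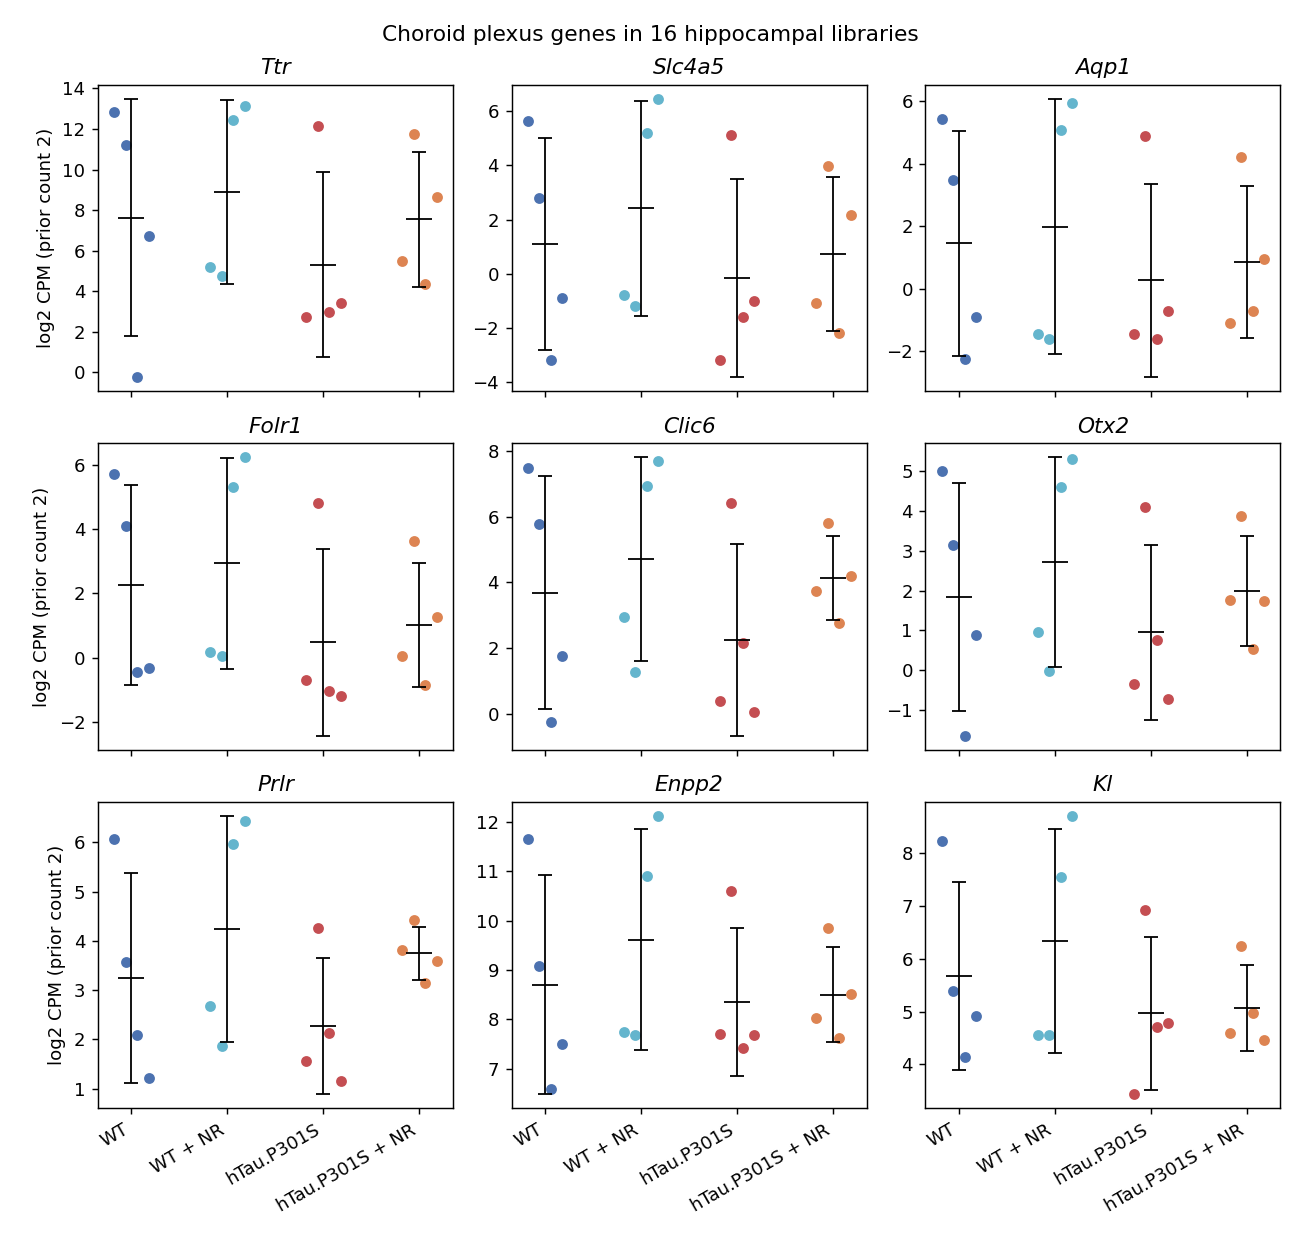
Level of each of the 9 genes (vertical axis, log2 CPM with a prior count of 2) in the 4 groups, with 1 point per mouse in the order of the replicate numbers, and the mean and SD of each group in black (n = 4). Each group holds both high and low mice for Ttr, from 0.738 to 9045 CPM over all mice, and the vertical axes differ between genes.

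Among the channels and transporters, Aqp1, the water channel of the apical membrane, was close to undetected in most mice. Its CPM were 43.5, 11.1, 0.105 and 0.433 in WT, 0.257, 0.219, 33.9 and 61.7 in WT + NR, 0.256, 29.4, 0.218 and 0.499 in hTau.P301S, and 0.359, 18.7, 0.504 and 1.85 in hTau.P301S + NR. The lowest mouse held 2 counts and the highest 1094, a ratio of 585 with a 95% interval of 162 to 4839 that covers counting error only. The 6 mice highest in Ttr all exceeded 11 CPM of Aqp1, and the other 10 were at 1.85 CPM or less.

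Slc4a5, a sodium bicarbonate cotransporter of the apical membrane, had 0 counts in WT replicate 3 and in hTau.P301S replicate 1, which allows up to 0.158 and 0.256 CPM. In the other WT mice it was at 50.4, 6.84 and 0.433 CPM, in the WT + NR mice at 0.462, 0.328, 36.6 and 88.3 CPM, in the other hTau.P301S mice at 35.1, 0.218 and 0.388 CPM, and in the hTau.P301S + NR mice at 0.359, 15.8, 0.112 and 4.37 CPM. These limits stand for 3 counts in a library, and the highest mouse was at least 344-fold higher than the larger of them. Clic6, of the chloride intracellular channel family, ranged from 0.738 to 204 CPM with a median of 10.5 CPM, 277-fold, and the 6 mice were at 54.3 CPM or more.

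Of the receptors, Folr1, the folate receptor that moves folate into cerebrospinal fluid, ranged from 0.332 to 74.8 CPM (median 0.984 CPM). The 6 mice were at 12.2 CPM or more, and hTau.P301S + NR replicate 4 came next at 2.28 CPM. Prlr, the prolactin receptor, ranged from 2.11 to 85.9 CPM, 40.8-fold. It was the member with the least clear gap: hTau.P301S + NR replicate 1, at 44.4 CPM of Ttr, held 13.8 CPM of Prlr, more than the 11.8 CPM of WT replicate 2, which was at 2339 CPM of Ttr.

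Otx2 was at 32.0, 8.68, 0.211 and 1.73 CPM in WT, at 1.85, 0.874, 24.0 and 39.8 CPM in WT + NR, at 0.684, 17.1, 1.58 and 0.499 CPM in hTau.P301S, and at 3.32, 14.5, 1.34 and 3.26 CPM in hTau.P301S + NR. The 6 mice stood at 8.68 CPM or more and the other 10 at 3.32 CPM or less. An antisense gene, Otx2os1, overlaps this locus, and the strand used in counting is not given in the sources used here, so reads of the pair may not be fully separated.

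**Figure D2:**
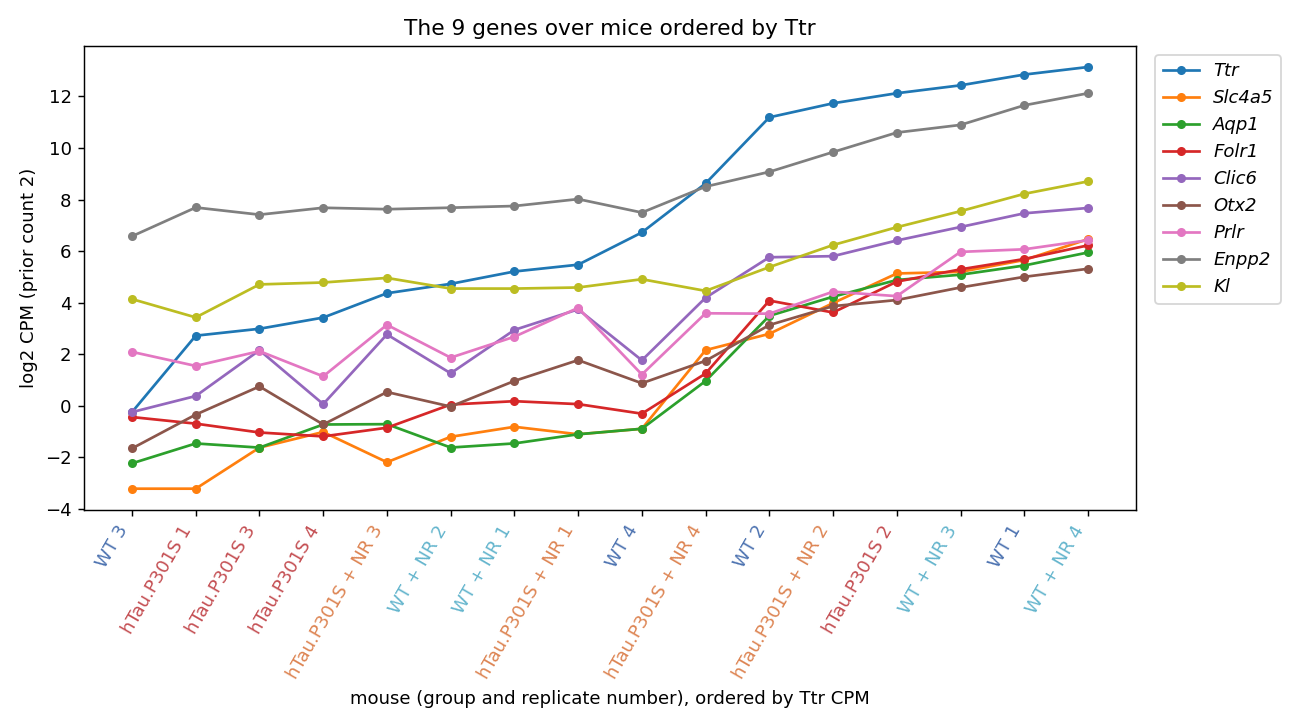
The 9 genes (lines, log2 CPM with a prior count of 2) in the 16 mice, ordered from left to right by Ttr CPM, with mouse labels coloured by group. The 6 mice on the right, from 2339 to 9045 CPM of Ttr, hold the highest levels of every gene except Prlr, which is higher in 2 mice to their left than in WT replicate 2.

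The spread by which the genes were selected can be placed among the 17555 genes kept over all mice. The SD of log2 CPM pooled within the groups was 4.65 for Ttr, which ranked 3, 3.63 for Slc4a5, 3.36 for Aqp1, 2.85 for Folr1, 2.84 for Clic6 and 2.34 for Otx2. These 6 members were among the 100 genes with the widest spread. Enpp2 at 1.82, Prlr at 1.73 and Kl at 1.61 had narrower ones, and the median gene had 0.45. Over the members, the median SD between the 4 group means was 0.84, and the median SD within groups was 2.84. The SD within groups is the measure the members were selected on, and each group mean is taken over 4 mice. These values are therefore not on one scale, and no ratio is drawn from them.

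The members varied together. Over the 16 mice, the correlation of log2 CPM with Ttr was Pearson's r = 0.97 and Spearman's rho = 0.96 for Otx2, and the same for Slc4a5. For Aqp1 r was 0.95 and rho 0.91, for Clic6 0.95 and 0.94, for Folr1 0.94 and 0.93, for Enpp2 0.92 and 0.90, for Kl 0.85 and 0.82 and for Prlr 0.84 and 0.84. Since the genes were chosen together for their spread and come from the same libraries, these values are descriptions (n = 16). Without the pair of mice farthest from the median of Ttr, WT + NR replicate 4 and WT replicate 1, r stayed between 0.78 for Prlr and 0.96 for Otx2 and Slc4a5. Among all 36 pairs of members r ran from 0.84 to 0.99.

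Because Ttr leaves a gap between mice, the relation was also read on both sides of it. Within the 6 highest mice, r with Ttr was 0.92 for Folr1, 0.94 for Prlr, and 0.97 or more for the other 6 genes. Kl, Enpp2, Aqp1, Clic6, Otx2 and Slc4a5 put these mice in exactly the order of Ttr, with rho = 1.0. Within the other 10 mice r was lower, at 0.86 for Slc4a5, 0.85 for Enpp2 and Otx2, 0.80 for Aqp1, 0.78 for Clic6 and 0.68 for Folr1. Prlr (0.40) and Kl (0.39) followed Ttr least there. Few counts lie behind several of those values, with 0 to 90 counts of Slc4a5 and 2 to 38 of Aqp1 per mouse.

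The ratio of each gene to Ttr was taken as counts per 1000 Ttr counts of the same mouse. In the 6 highest mice, Otx2 kept the narrowest ratio, 3.71 to 4.40. Aqp1 had 4.77 to 6.82 counts per 1000 Ttr counts and Clic6 16.4 to 24.0. The wider ratios were those of Enpp2 at 231 to 494, Folr1 at 3.58 to 8.27, Kl at 17.8 to 46.2, Prlr at 4.25 to 11.3 and Slc4a5 at 2.92 to 9.76. The ratio of Kl rose in the order of the Ttr levels of these mice, and was 17.8 in WT replicate 2, 22.1 in hTau.P301S + NR replicate 2, 27.3 in hTau.P301S replicate 2, 33.9 in WT + NR replicate 3, 40.5 in WT replicate 1 and 46.2 in WT + NR replicate 4. In the same order of mice that of Enpp2 was 231, 269, 347, 345, 438 and 494, and that of Slc4a5 was 2.92, 4.62, 7.85, 6.62, 6.82 and 9.76.

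In the other 10 mice most ratios were far higher. Enpp2 reached 917 to 129429 counts per 1000 Ttr counts, Kl 55.4 to 23786 and Prlr 21.0 to 5643, so that in WT replicate 3, with 14 Ttr counts, there were 1812 counts of Enpp2 and 333 of Kl. Clic6 and Otx2 also held higher ratios there, 31.2 to 1000 and 8.22 to 286. Aqp1 and Folr1 exceeded their ranges of the 6 mice in all of these 10 but WT replicate 4 and hTau.P301S + NR replicate 4. In those mice Aqp1 was at 4.09 and 4.66, near its values in the 6 mice. Folr1 was at 6.65 and 5.77 there, within its range in the 6 mice. Slc4a5, at 0 to 36.5, exceeded its range of the 6 mice in only some of the 10. In hTau.P301S + NR replicate 1, Clic6 (13.3 CPM), Otx2 (3.32 CPM) and Prlr (13.8 CPM) were higher than in each of the other mice at or under 106 CPM of Ttr, while Aqp1 (0.359 CPM), Slc4a5 (0.359 CPM) and Folr1 (0.941 CPM) lay within the range of those mice.

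**Figure D3:**
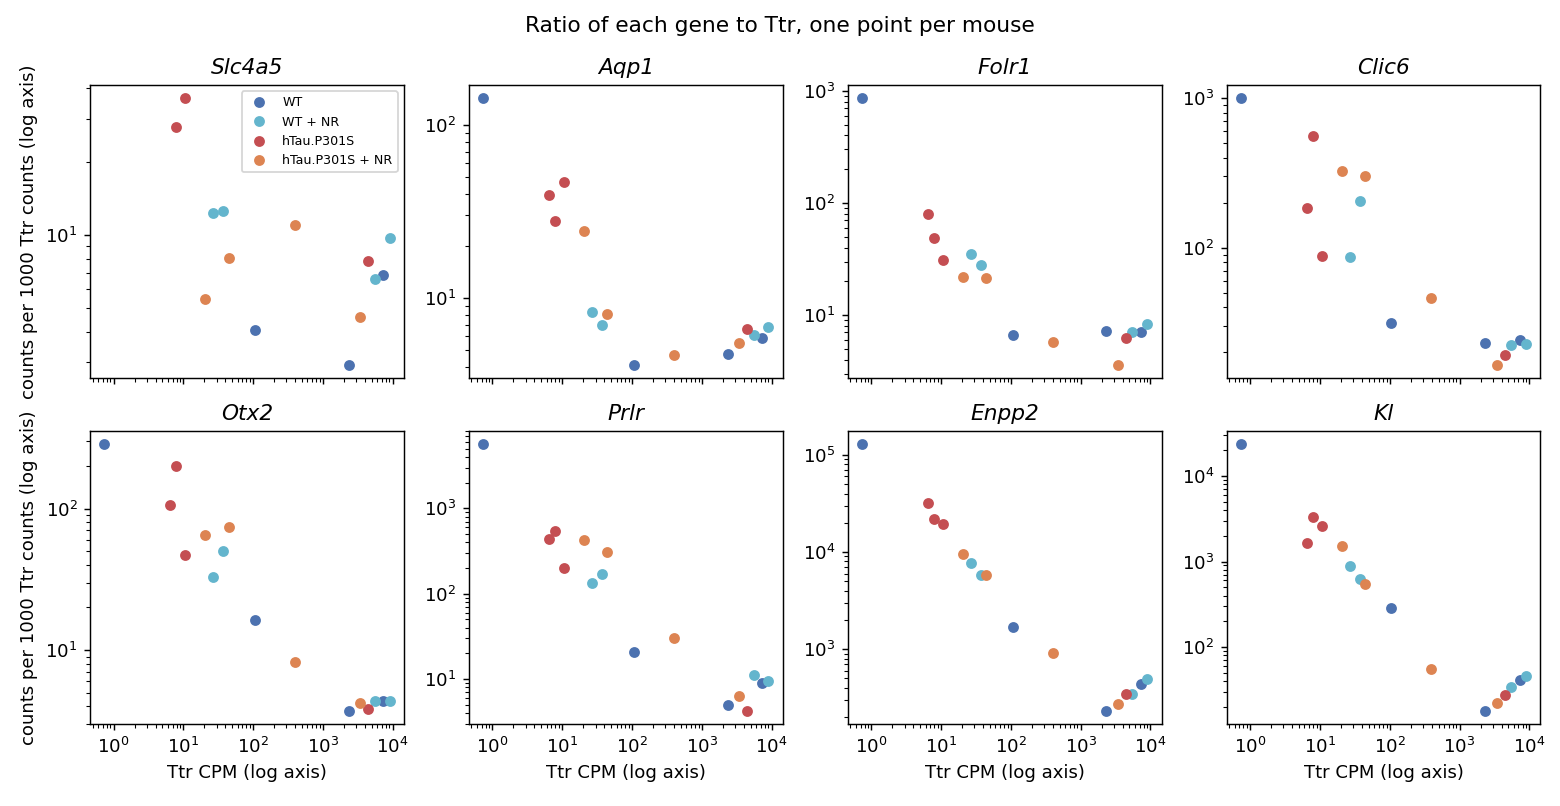
Counts of each of 8 genes per 1000 Ttr counts (vertical, log axis) against Ttr CPM (horizontal, log axis), 1 point per mouse coloured by group. The mice with 0 counts of Slc4a5 are left out of its panel. Ratios of Enpp2, Kl and Prlr are lower in the 6 highest mice, at 231 to 494, 17.8 to 46.2 and 4.25 to 11.3, than in any of the other 10, and within the 6 mice that of Kl rises with Ttr.

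Levels of different genes were compared per length, as CPM per kb of the deposited gene length. In the 6 highest mice the order of median levels was Ttr, Enpp2, Clic6, Kl, Folr1, Aqp1, Slc4a5, Otx2 and Prlr, and the rank correlation of this order between any pair of these mice was at least 0.95. Ttr exceeded Enpp2 by 9.60- to 20.5-fold, and Enpp2 exceeded Clic6, Clic6 exceeded Kl, Aqp1 exceeded Slc4a5 and Otx2 exceeded Prlr in 6 of 6 mice. Kl and Folr1 changed places in 1 of these mice, Folr1 and Aqp1 in 1, and Slc4a5 and Otx2 in 2. Over all 16 mice Ttr had the highest level per kb in 8 and Enpp2 in the other 8.

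Other genes known from choroid plexus epithelium followed Ttr as well. Of a list of 50 companion genes without the members, 38 (76%) had r above 0.7 with Ttr and 13 (26%) above 0.9, against 2.61% and 0.228% of the 17555 genes. The median r was 0.87 over the list and 0.00 over all genes (n = 16 mice). The list was put together with earlier results of these counts known.

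Of the 5 companions with the highest mean CPM, Ace, the angiotensin-converting enzyme, had r = 0.90 and Igfbp2, a binding protein of insulin-like growth factors, 0.87. Htr2c, a serotonin receptor, had 0.65, Trpm3, a cation channel, 0.58, and Atp2b3, a plasma membrane calcium pump of neurons, 0.23. The companions with the widest ranges were Tmem72 (0.96), Mfrp (0.97), the collagen gene Col8a1 (0.88), the coagulation factor gene F5 (0.91) and the potassium channel subunit gene Kcne2 (0.95).

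The 15 genes outside the members that were most like Ttr, by r over the 16 mice, were Mfrp at 0.97, Prr32 and Tmem72 at 0.96, Kcne2 and Cdh3 at 0.95, 2900040C04Rik at 0.95, and Sfrp1, Ooep, Col8a2, Rbm47, Wfdc2, Wdr86, Lbp, Mospd1 and Frmpd1os at 0.93 to 0.94. Of these, Mfrp, Tmem72, Kcne2, Col8a2 and Lbp stood in the companion list. Mfrp ranged from 0 to 84.8 CPM and Sfrp1, which encodes a secreted antagonist of Wnt signalling, from 2.82 to 31.9 CPM. At the other end were Ap3b2 at -0.90, Vps9d1 at -0.88, Rmc1 at -0.85, 5430416N02Rik at -0.83 and Exoc1 at -0.82. Ap3b2, a neuronal subunit of the AP-3 adaptor complex, ranged from 109 to 165 CPM, and 5430416N02Rik from 0.730 to 3.93 CPM.

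**Figure D4:**
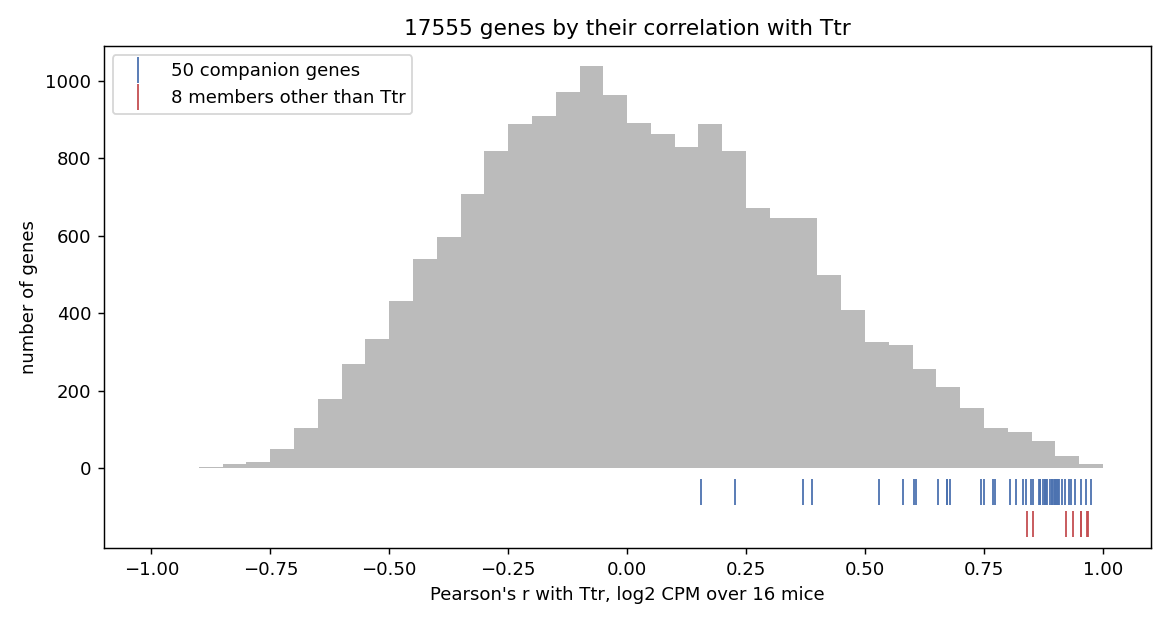
Number of genes (vertical) by their Pearson's r with Ttr over the 16 mice (horizontal, log2 CPM), for 17555 genes. Ticks below the bars mark the 50 companion genes, whose median r is 0.87, and the 8 members other than Ttr, whose r is 0.84 or more.

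Markers of neighbouring tissues were summed in each mouse and set beside the members, as CPM. In the 6 mice highest in Ttr the companion list summed to 1078 to 3553 CPM, and in the other 10 to 377 to 785 CPM, with no overlap. The list of ciliated ependymal cells, which line the ventricles, summed to 81.0 to 313 CPM in the 6 mice and 36.2 to 119 CPM in the others (r with Ttr 0.72 over 16 mice), and 5 of its 14 kept genes had r above 0.7. Leptomeningeal and fibroblast markers ranged from 639 to 3202 CPM against 183 to 2175 CPM (r 0.47), and no gene of that list had r above 0.7.

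Striatal markers, of another tissue bordering the lateral ventricle, summed to 221 to 2465 CPM in the 6 mice and to 159 to 910 CPM in the others (r 0.48). Their highest values were in WT replicate 2 and in hTau.P301S + NR replicate 4, which is the mouse between the high and low levels of Ttr. Hippocampal neuron markers summed to 781 to 1835 CPM and 917 to 2367 CPM (r -0.45), and WT + NR replicate 3, WT replicate 2 and hTau.P301S + NR replicate 4 were the 3 lowest of the 16. Endothelial and pericyte markers (r 0.05), blood markers (r 0.02), thalamus and habenula markers (r 0.15) and oligodendrocyte markers (r 0.20) showed little relation to Ttr. Spearman's rho with Ttr was 0.76 for ependymal, 0.66 for striatal and 0.43 for leptomeningeal and fibroblast markers. For hippocampal neuron markers rho was -0.37 and for oligodendrocyte markers -0.21, the latter opposite in sign to r. Endothelial and pericyte markers had rho 0.21, thalamus and habenula markers 0.19 and blood markers 0.04. No list other than the companions separated the 6 mice from the rest.

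By group, ependymal markers summed to 36.2 to 81.0 CPM in hTau.P301S, 77.1 to 120 CPM in hTau.P301S + NR, 40.4 to 199 CPM in WT and 67.3 to 313 CPM in WT + NR. Striatal markers summed to 182 to 2465 CPM in WT, 159 to 495 CPM in WT + NR, 175 to 225 CPM in hTau.P301S and 199 to 910 CPM in hTau.P301S + NR. The part of any of these lists in the members' levels was not tested. Sequencing depth was alike on both sides, with 16490261 to 18732441 counts in the 6 mice and 17096764 to 21915362 in the others, and mitochondrial shares were 4.60% to 6.46% in the 6 mice.

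The comparisons between groups ask whether genotype or NR moved these genes. None of the 9 genes was called in any of them, by edgeR's quasi-likelihood test with Benjamini-Hochberg adjustment over all genes tested, with a call needing both an adjusted p below 0.05 and a log2 fold change of more than 0.5 in either direction. The 5 comparisons share groups and are not independent of each other. Nothing in the labels says how the 4 mice of a group were related, so p-values measure the spread between these mice. The members were selected for that spread, so the lack of calls was in part set by the selection. It does not show that genotype or NR left these genes unchanged. The members also vary together, so a shared direction of the 9 genes is not 9 separate observations.

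Between the hTau.P301S and WT groups, 7 members were tested. Aqp1 and Slc4a5 did not pass the filter on low counts. Ttr was at 1124 ± 2230 CPM in hTau.P301S and 2457 ± 3456 CPM in WT (SD, n = 4 each). Its fitted log2 fold change was -1.13 with a standard error of 2.38 and an edgeR adjusted p of 0.870. The edgeR test gives no standard error of its own. Those printed here were derived from it, as the absolute log2 fold change divided by the square root of the F statistic. The fitted log2 fold changes of the 7 genes were all negative, with a median of -1.13 against 0.02 over all genes, and the lowest adjusted p was that of Prlr, 0.609. Of 16375 genes tested, 0.00611% were called and 7.14% fell below 0.05 in unadjusted p, and no member did. For Aqp1 and Slc4a5 the fit without the filter gave -0.85 (standard error 1.56) and -0.68 (1.71).

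Single mice decided these values. Without WT replicate 1 the 7 fitted changes were all positive (Ttr 0.45), and without hTau.P301S replicate 2, the only high mouse of its group, Ttr came to -8.20 with an adjusted p of 0.435. Without hTau.P301S replicate 1 all 9 genes passed the filter, the median was -0.73 and Ttr was at -0.72.

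In hTau.P301S + NR mice relative to hTau.P301S mice, 3 of the 7 tested members had positive and 4 negative fitted changes, with a median of -0.21. Ttr was at 968 ± 1638 CPM in hTau.P301S + NR (SD, n = 4) and its log2 fold change was -0.21 (standard error 2.18, edgeR adjusted p 0.963). Its mean log2 CPM, in which each mouse weighs alike, differed in the other direction, at 7.55 with NR and 5.32 without. On that measure every member was higher with NR, by 0.10 for Kl to 2.24 for Ttr. The lowest unadjusted p of these differences by the exact permutation test was 0.114, for Prlr. The direction of several members thus depended on how the mice were weighed. Among the fitted changes Prlr had the largest positive value, 0.98 (standard error 0.68, edgeR adjusted p 0.448). It was at 13.996 ± 5.40 CPM against 7.05 ± 8.03 CPM. Of 16386 genes, 0.0061% were called and 12.9% fell below 0.05 in unadjusted p, with no member among them. Without hTau.P301S replicate 2 the 7 changes were all positive (Ttr 6.87, adjusted p 0.241), and without hTau.P301S + NR replicate 2 only that of Prlr was (Ttr -2.86). Without hTau.P301S replicate 1, 8 of 9 were negative.

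In WT + NR mice relative to WT mice all 9 members were tested and all had positive fitted changes, from 0.52 for Clic6 to 1.13 for Slc4a5, with a median of 0.75. Ttr was at 3660 ± 4428 CPM with NR and 2457 ± 3456 CPM without (SD, n = 4 each), a log2 fold change of 0.58 with a standard error of 2.05. Every adjusted p of the members was 0.9999 by edgeR. Of 16714 genes, 0% were called, and 0.79% fell below 0.05 in unadjusted p, with no member among them. Without WT + NR replicate 4 the fitted changes of 8 of the 9 genes turned negative (Ttr -0.39), and without WT replicate 1 the median rose to 2.46.

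In hTau.P301S + NR mice relative to WT + NR mice all 9 fitted changes were negative, with a median of -1.96, and none was called. Folr1 was at 3.97 ± 5.55 CPM against 29.0 ± 35.4 CPM (SD, n = 4 each), a log2 fold change of -2.87 with a standard error of 1.42. Kl was at 38.1 ± 25.2 CPM against 163 ± 187 CPM, a log2 fold change of -2.10 with a standard error of 0.90. It was the only member below 0.05 before adjustment, with an edgeR adjusted p of 0.781. Ttr was at -1.92 (standard error 1.88, adjusted p 0.836). Of 16671 genes, 0.054% were called and 6.09% fell below 0.05 in unadjusted p. The direction of all 9 was negative whichever mouse was left out, and the median was -0.95 without WT + NR replicate 4.

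The interaction, the effect of NR in hTau.P301S mice minus that in WT mice, was fitted over the 16 mice. Fitted values were negative for 8 members and positive for Prlr (0.09, standard error 1.49), with -0.79 for Ttr (standard error 3.23, edgeR adjusted p 0.934), and the lowest adjusted p was 0.793, for Kl. Of 17555 genes 0% were called, here on an adjusted p below 0.05 alone, and 7.92% fell below 0.05 in unadjusted p, with no member among them. Without hTau.P301S replicate 2 all 9 values were positive (Ttr 6.28), without WT + NR replicate 4 6 of 9 were (Ttr 0.18), without WT replicate 1 the median was -2.74 and Ttr at -2.38, and without hTau.P301S replicate 1 all 9 were negative.

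**Figure D5:**
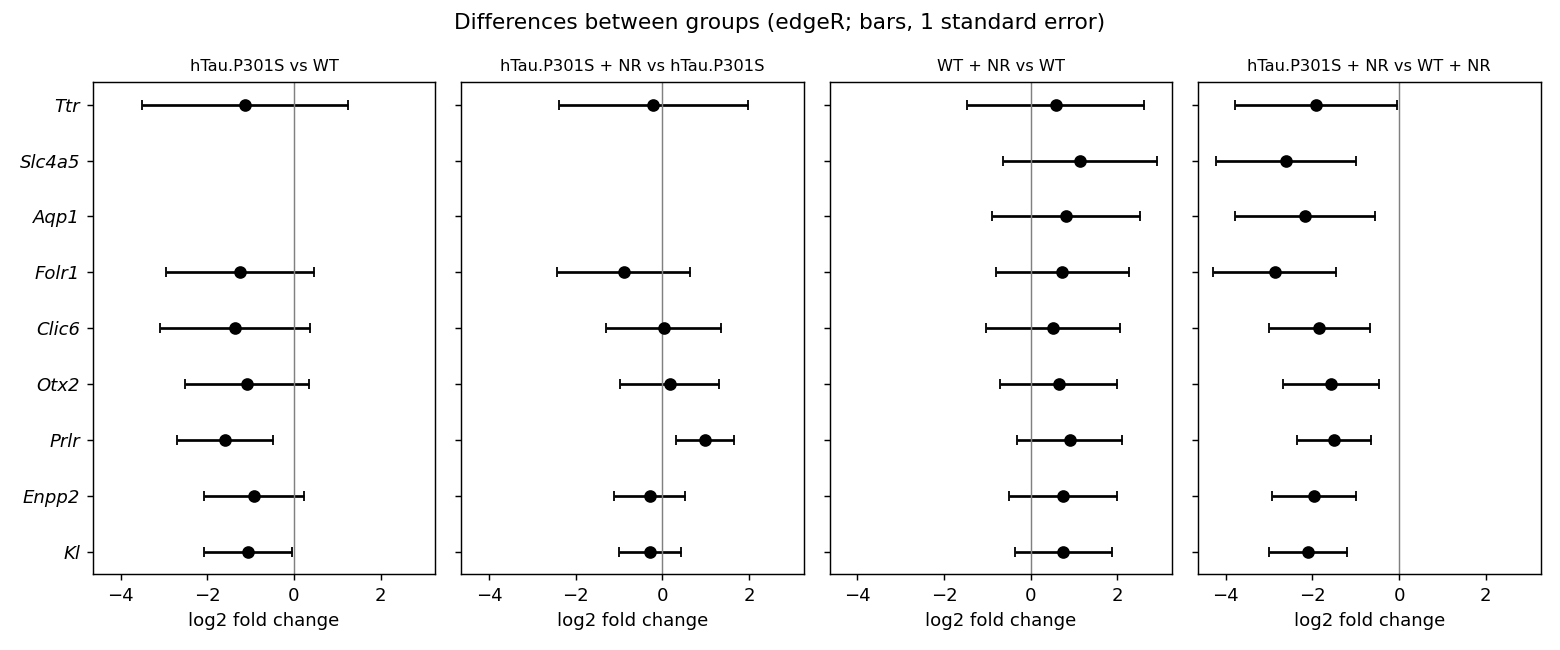
Fitted log2 fold change of each gene (points, horizontal axis) with 1 standard error either side (bars) in the 4 comparisons between groups, by edgeR. The standard errors were derived from the F statistic of the test. Aqp1 and Slc4a5 have no point where they did not pass the filter on low counts. Error bars of Ttr span 1.88 to 2.38 either side, and no gene was called.

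Each member was also compared directly, by a two-sided exact permutation test on the difference of mean log2 CPM. Over 36 tests, p ran from 0.114 to 0.914, with a lowest Benjamini-Hochberg adjusted p of 0.852, where 4 mice against 4 allow no p under 0.0286. In none of the 4 comparisons did a member separate the groups without overlap. Selection for a wide spread within groups made such overlap likely in advance. The share of all tested genes that did was 6.23% for hTau.P301S against WT, 11.8% for NR in hTau.P301S mice, 0.754% for NR in WT mice and 3.73% for hTau.P301S + NR against WT + NR.

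The companion genes gave the same counts of calls. Of the 50, 46, 44, 50 and 48 were tested in hTau.P301S against WT, NR in hTau.P301S mice, NR in WT mice and hTau.P301S + NR against WT + NR, and 0 were called in each. Those with an unadjusted p under 0.05 by edgeR numbered 1, 1, 0 and 5 in that order. Over all genes tested the shares were 7.14%, 12.9%, 0.79% and 6.09%. The fitted changes were negative for 42 of 46, negative for 32 of 44, positive for 44 of 50 and negative for 48 of 48, and in the interaction, with all 50 tested and 0 called, negative for 44. Most companions followed Ttr (median r 0.87), so these counts of direction are not separate observations.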

How the data were processed

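The authors deposited raw counts per gene for the 16 mice in one table, with each gene's symbol and length in bases. Per the labels and the study's methods, reads were checked with FastQC, trimmed with Trim Galore, aligned to mm10 with STAR and counted with RSEM, and the versions and strand setting are not given in the sources used here. Counting that does not use strand would mix reads of Otx2 and Otx2os1.

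Counts were scaled by TMM in edgeR 4.0.16 (R 4.3.3), and log2 CPM were taken with a prior count of 2. Each pair of groups was fitted on its own 8 mice by edgeR's quasi-likelihood test after filterByExpr, and the interaction on all 16. DESeq2 1.42.0, other filters, a fit of all 4 groups, a block on replicate number and fits without each mouse were tried as alternatives. Exact permutation tests used scipy 1.17.1. No outlier test was run within groups, since the members were selected on that spread. The fits and the ranking by r were checked on simulated data. The simulated counts had the spread usual for genes of their level, so genes that vary like the members were not covered. Intervals and floors (3 counts) cover counting error only. The members and lists were chosen with earlier results of these data known. The text names all members, the companions with the 5 highest means and the 5 widest ranges, and the 15 genes highest and 5 lowest in r with Ttr. Promoter windows were from RefSeq for Kl, Aqp1, Slc4a5, Otx2 and Prlr, and those of Ttr, Folr1, Clic6 and Enpp2 were not analysed here.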

Additional observations from a re-analysis of the deposited data

How the results depend on the processing

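No member was called under any alternative that tested it, and the lowest adjusted p was 0.241. DESeq2 gave a fold change but no p, unadjusted or adjusted, for 6 of 45 results of members. These were Ttr, Folr1, Aqp1 and Enpp2 for NR in hTau.P301S mice, and Kl and Slc4a5 for hTau.P301S against WT. The members are thus not tested there by DESeq2. A minimum of 10 counts in every mouse removed Aqp1 and Slc4a5 in every comparison, and Folr1 and Otx2 in some. Counts of genes called over the whole table moved more: for hTau.P301S against WT from 1 to 116 with DESeq2, 5 with no filter, 36 with all 4 groups in one fit and 3 with the replicate block; for NR in hTau.P301S mice from 1 to 250 with DESeq2, 2 with all 4 groups, and 0 with at least 10 counts in every mouse or with the replicate block; for NR in WT mice from 0 to 3 with DESeq2; for hTau.P301S + NR against WT + NR from 9 to 58 with DESeq2, 15 with no filter and 4 with the replicate block; and for the interaction from 0 to 16 with DESeq2. Leaving out each mouse gave 1 to 14, 0 to 33, 0, 8 to 31 and 0 to 1 calls in that order. The unadjusted p was under 0.05 for 132 genes for NR in WT mice and for 1390 in the interaction.

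Of 305 fitted changes of members under other settings, 300 kept their direction. The other 5 came with the replicate block: in NR in hTau.P301S mice Ttr 2.17, Kl 0.082, Folr1 0.51 and Enpp2 0.15, and in the interaction Prlr -0.61. Same-numbered mice deviated from their group means with correlations of -0.54 to 0.29, so the numbers were taken as names. Of 400 fitted changes of members in fits without 1 mouse, 50 reversed direction, and the cause was not tested. Each fit gives changes of several members that vary together, so these are not separate observations. For hTau.P301S against WT the log2 fold changes of the members that reversed ran for Clic6 from -4.74 to 0.23, Enpp2 from -2.38 to 0.96, Folr1 from -5.42 to 0.27, Kl from -2.18 to 0.63, Otx2 from -3.51 to 0.48, Prlr from -2.80 to 0.20 and Ttr from -8.20 to 0.45. For NR in hTau.P301S mice the log2 fold changes of the members that reversed ran for Clic6 from -0.85 to 3.43, Enpp2 from -0.96 to 1.17, Folr1 from -2.58 to 3.29, Kl from -0.86 to 0.84, Otx2 from -0.92 to 2.59 and Ttr from -2.86 to 6.87. For NR in WT mice the log2 fold changes of the members that reversed ran for Aqp1 from -0.25 to 2.63, Clic6 from -0.40 to 2.12, Enpp2 from -0.37 to 2.65, Folr1 from -0.34 to 2.26, Kl from -0.30 to 2.46, Otx2 from -0.24 to 2.24, Slc4a5 from -0.20 to 3.71 and Ttr from -0.39 to 2.17. For the interaction the log2 fold changes of the members that reversed ran for Aqp1 from -3.87 to 3.19, Clic6 from -2.08 to 2.90, Enpp2 from -2.94 to 0.42, Folr1 from -3.31 to 2.56, Kl from -2.74 to 0.080, Otx2 from -2.07 to 1.94, Prlr from -1.73 to 1.30, Slc4a5 from -4.50 to 3.37 and Ttr from -3.45 to 6.28. The ranges of log2 CPM were retaken with a prior count of 0.5, with DESeq2's size factors and without hTau.P301S replicate 1. Leaving out that mouse was chosen after seeing the data. Each range moved by less than the gene's SD within groups, but that of Slc4a5 went from 9.68 to 11.7 with the prior count of 0.5. The correlations with Ttr lay between 0.78 and 0.97 under these settings. That span also covers centring on group means and leaving out the pair of mice farthest from the median of Ttr. Depth limits Aqp1 and Slc4a5, which had 0 to 9 counts in most mice.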
